A study of Mus musculus with 18 samples.

Results

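The genes described here are 29 that break down the branched-chain amino acids leucine, isoleucine and valine, with the ketone bodies and lysine whose oxidation runs alongside. They were followed by bulk RNA sequencing in mouse hearts 7 days after ischemia-reperfusion surgery. The members are a list of symbols given by biological role and chosen with earlier results of these data known. All 29 symbols were found among the 25731 in the deposited count table. All 29 also passed the filter on low counts that left 15088 genes for testing.

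The hearts came from 3 groups of 6 adult male C57BL/6 mice, all wild type. IR+Decursin hearts had ischemia-reperfusion and received decursin, a pyranocoumarin found in the root of Angelica gigas. IR hearts had ischemia-reperfusion alone, and SHAM hearts had the sham operation. The labels and the design text state neither the length of the ischemia, the region of the heart sampled, nor the dose and route of decursin. Each library is 1 heart of 1 mouse. Each group carries a batch label of its own, so an effect of batch and an effect of surgery or of decursin cannot be told apart.

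Branched-chain amino acids enter cells through amino acid exchangers and lose their amino group to a transaminase. The resulting keto acids are then committed to oxidation by the branched-chain keto acid dehydrogenase complex in the mitochondrial matrix, which a kinase switches off and a phosphatase switches on. Leucine ends as acetyl-CoA and acetoacetate, while valine and isoleucine yield propionyl-CoA. A biotin carboxylase, an epimerase and a cobalamin-dependent mutase turn propionyl-CoA into succinyl-CoA. The heart takes up ketone bodies through a monocarboxylate transporter and oxidizes them in mitochondria, and the rate-setting enzyme for this, the CoA-transferase that activates acetoacetate, is encoded by Oxct1.

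Library totals ran from 27525876 to 34974692 counts. Cardiomyocyte markers were abundant in all 18 libraries that the labels give as heart, and none of the 14 was at 0 in any of them. On the first principal component of all tested genes, with 54.0% of the variance, the IR+Decursin libraries spread from 52.2 in library 1 to -46.0 in library 6. The IR libraries lay between 27.8 and 64.5 and the SHAM libraries between -62.4 and -53.1, each within a narrower range. Although every mouse was labelled male, 3 libraries (IR 3, IR 4 and IR+Decursin 2) held 14072 to 14232 counts of Xist, the RNA made from the inactive X chromosome, against at most 8 counts in the other 15. Without those 3 libraries, 24 members were called lower in IR against SHAM hearts, in place of the 27 described below, where 16.9% of all genes were called lower, and the calls of Acadsb, Bckdha and Ppm1k were lost.

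Promoter sequence is shown for 2 of the 3 pairs of partner genes whose ratio of counts differed between groups, and for Klf15, the transcription factor among the members. The pairs are Mccc1 with Mccc2, the subunits of 1 enzyme, and Slc16a1 with Oxct1, the carrier and the activating enzyme of ketone bodies. Each run is the 250 bases before the RefSeq transcription start in GRCm38.p6, read 5′ to 3′ on the strand of the gene. That build differs from the GRCm39 alignment, so these coordinates are used for sequence alone. Capitals mark matches on either strand to CACGTG, the E-box bound by basic helix-loop-helix factors, or to CCNCNCCC, a GC-rich string of the kind bound by Krüppel-like factors, and neighbouring matches may overlap. AAGGTCA, the core of the estrogen-related receptor site, was searched as well.

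Mccc1, chr3:36000679-36000928, minus strand: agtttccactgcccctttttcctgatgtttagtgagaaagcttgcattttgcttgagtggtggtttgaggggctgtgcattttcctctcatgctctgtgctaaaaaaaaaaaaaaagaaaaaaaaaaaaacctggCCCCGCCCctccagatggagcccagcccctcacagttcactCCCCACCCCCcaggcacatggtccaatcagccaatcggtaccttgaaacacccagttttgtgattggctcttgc

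Mccc2, chr13:100015640-100015889, minus strand: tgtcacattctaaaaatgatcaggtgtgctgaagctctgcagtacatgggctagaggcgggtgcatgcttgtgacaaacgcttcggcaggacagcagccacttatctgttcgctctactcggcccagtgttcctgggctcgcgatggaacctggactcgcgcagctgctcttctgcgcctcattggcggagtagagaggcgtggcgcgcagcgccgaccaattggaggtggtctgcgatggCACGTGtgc

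Slc16a1, chr3:104638414-104638663, plus strand: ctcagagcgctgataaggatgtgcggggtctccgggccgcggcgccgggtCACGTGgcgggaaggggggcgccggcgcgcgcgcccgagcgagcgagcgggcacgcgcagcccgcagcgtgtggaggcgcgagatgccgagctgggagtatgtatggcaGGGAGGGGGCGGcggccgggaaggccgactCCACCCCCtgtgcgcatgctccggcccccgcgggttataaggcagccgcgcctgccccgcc

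Oxct1, chr15:4026178-4026427, plus strand: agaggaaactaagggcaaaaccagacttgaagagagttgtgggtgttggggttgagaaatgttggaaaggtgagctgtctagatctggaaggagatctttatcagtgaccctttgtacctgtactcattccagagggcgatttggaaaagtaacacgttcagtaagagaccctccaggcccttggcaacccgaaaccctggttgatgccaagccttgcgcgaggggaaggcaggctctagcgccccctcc

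Klf15, chr6:90462326-90462575, plus strand: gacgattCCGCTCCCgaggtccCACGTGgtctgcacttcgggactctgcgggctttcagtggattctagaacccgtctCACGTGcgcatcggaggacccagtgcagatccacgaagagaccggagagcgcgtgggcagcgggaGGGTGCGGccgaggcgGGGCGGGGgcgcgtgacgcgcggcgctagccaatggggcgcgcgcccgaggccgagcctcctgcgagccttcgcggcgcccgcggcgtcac

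The Mccc1 window held 3 CCNCNCCC matches and no E-box, whereas the Mccc2 window held 1 E-box and no CCNCNCCC. In Slc16a1 there were 1 E-box and 3 CCNCNCCC matches, and in Oxct1 none of the 3 motifs. The Klf15 window had 2 E-boxes and 3 CCNCNCCC matches. RefSeq windows were matched for 26 of the 29 members, 32 windows in all. CCNCNCCC was in 17 of the 32 (53.1%), against 45.9% of 32841 mouse windows of the same length, and CACGTG was in 3 of the 32 (9.38%), against 6.02%. AAGGTCA was in 0 of the 32 member windows, against 4.08% of all windows. A match is a run of letters and not a measured binding site.

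In SHAM hearts the members spanned a wide range of levels, compared here as FPKM, which divides counts by gene length and library total. Oxct1 was the highest at 439.8 ± 33.6 FPKM (SD, n = 6 for all SHAM levels in this paragraph). Acat1, the mitochondrial thiolase that makes the last cleavage in both ketone and isoleucine breakdown, followed at 183 ± 10.3 FPKM. Hsd17b10, a dehydrogenase of the isoleucine branch, had 128 ± 8.07 FPKM. Hibadh, hydroxyisobutyrate dehydrogenase of the valine branch, had 126 ± 8.05 FPKM. Hsd17b10 and Hibadh differed by less than their SDs, while Oxct1 and Acat1 stood clear of each other and of the rest. Within the dehydrogenase complex, Bckdha, which encodes the alpha chain of the decarboxylase, had 97.4 ± 5.66 FPKM. Its partner Bckdhb, the beta chain, had 26.2 ± 2.45 FPKM, and Dbt, the transacylase core, had 24.4 ± 1.33 FPKM. The lowest members were Klf15 at 5.94 ± 1.04, Mmaa at 2.40 ± 0.224 and Aass, the first enzyme of lysine breakdown, at 0.0929 ± 0.0482 FPKM. Klf15 and Mmaa have long counted lengths, 8184 and 16219 bases, against 3033 for Mmab. Their SHAM libraries held 1108 to 1961 and 996 to 1501 counts, more than the 709 to 961 of Mmab. Aass had only 2 to 34 counts in any library.

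Ischemia-reperfusion hearts had lower mRNA for nearly the whole pathway. In IR against SHAM hearts 27 of the 29 members fell and none rose (edgeR quasi-likelihood test, Benjamini-Hochberg adjusted p under 0.05 over the 15088 genes), where 21.7% of all tested genes fell and 25.3% rose. The median member log2 difference was -0.60, against -0.00 over all tested genes. Because the members were chosen with earlier results of these data known, these counts describe the list and do not test it. For 19 members every IR library was below every SHAM library, a separation in this direction that 11.6% of tested genes showed. The other 2 of the 29, Bdh1 and Aass, did not pass the test. In bulk tissue, fewer cells of a type and less RNA per cell cannot be told apart. Scaled by library totals alone, in place of TMM factors, the median of all genes moved to 0.31 and that of the members to -0.29, which is -0.60 relative to all genes, and 17 members were called lower, where 7% of all genes were called lower and 46.5% higher. The share of higher calls among all called genes was then 86.9%, against 53.8% with TMM.

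**Figure D1:**
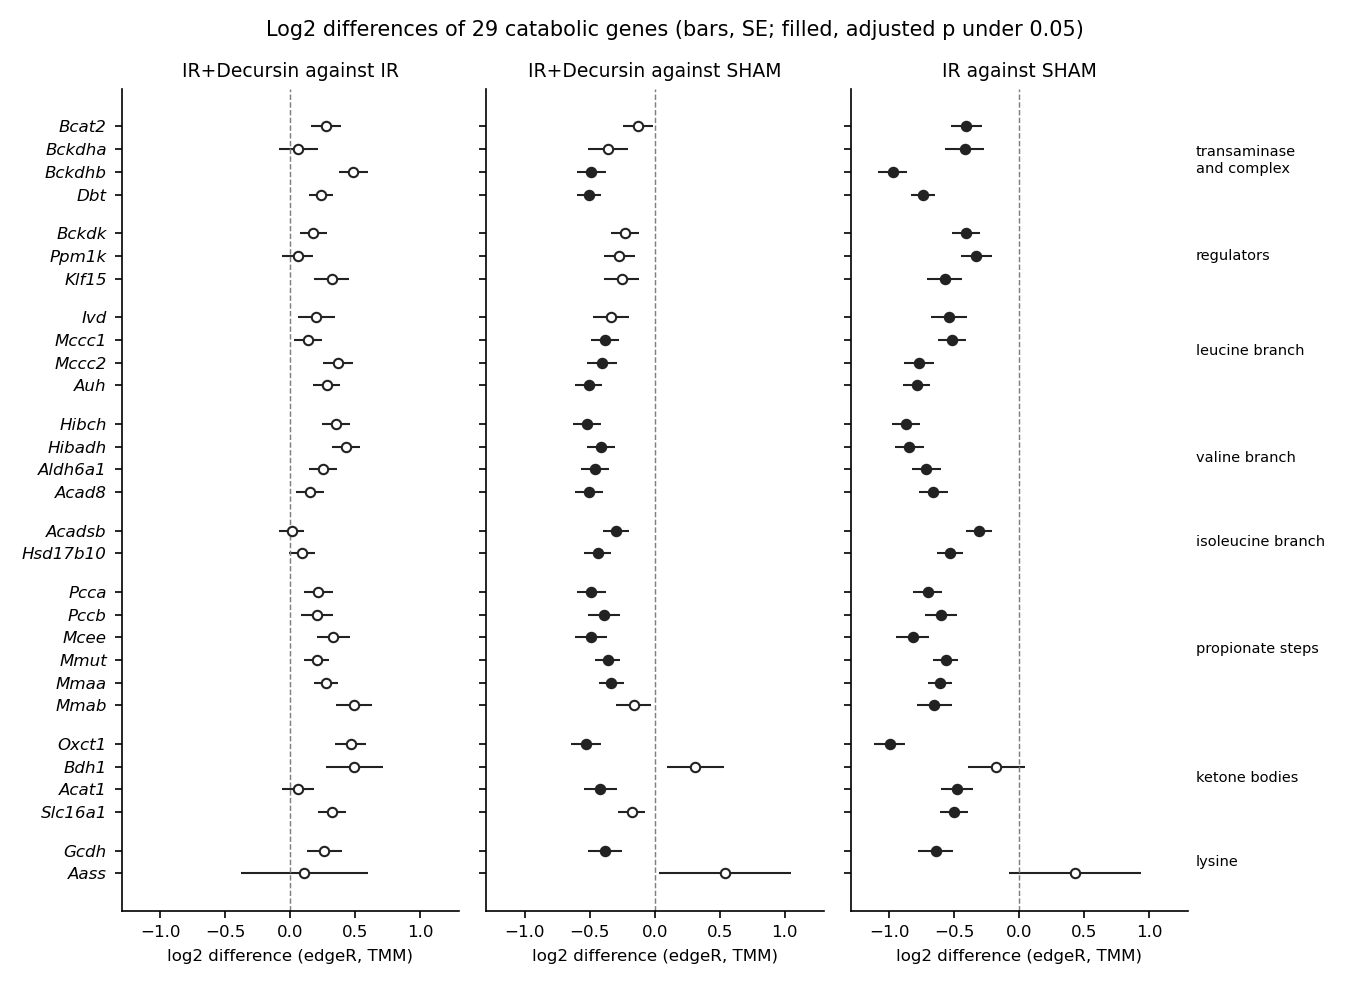
Log2 difference in level for each of the 29 members (rows, grouped by role) in IR+Decursin against IR, IR+Decursin against SHAM and IR against SHAM hearts, with bars of ± 1 SE from the edgeR fit and 6 hearts per group; filled points have an adjusted p under 0.05. In IR against SHAM 27 points are filled and lie left of 0, in IR+Decursin against SHAM 19 are filled, and in IR+Decursin against IR none is filled although all 29 lie right of 0.

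The transaminase and the dehydrogenase complex fell in all 4 members. Levels are given from here on as CPM, the counts of a gene scaled to one common library total with TMM factors. Bckdhb had a lowest, median and highest value of 27.1, 35.4 and 47.5 CPM in IR+Decursin hearts, of 21.9, 27.4 and 29.9 CPM in IR hearts and of 47.3, 49.4 and 58.5 CPM in SHAM hearts. All 6 IR libraries were below all SHAM libraries, and the IR+Decursin libraries reached from within the IR range to just inside the SHAM range. Bckdhb fell by 49.1% in IR against SHAM, a log2 difference of -0.98 ± 0.11 (SE, edgeR adjusted p = 4.95e-06). Dbt had 49.3, 63.5 and 74.2 CPM in IR+Decursin, 45.0, 53.8 and 61.3 CPM in IR and 79.0, 88.2 and 98.4 CPM in SHAM hearts in the same order of lowest, median and highest. Neither IR nor IR+Decursin libraries overlapped SHAM for Dbt, which fell by 0.74 ± 0.09 in IR (edgeR adjusted p = 7.14e-06).

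The other chain and the transaminase moved less and their groups overlapped. Bckdha averaged 181 ± 36.0 CPM in IR+Decursin, 173 ± 44.7 CPM in IR and 232 ± 20.4 CPM in SHAM hearts (SD, n = 6 each). Its log2 difference in IR against SHAM was -0.42 ± 0.15 (edgeR adjusted p = 0.0288), with 4 of 6 IR libraries below all SHAM libraries, and the call was lost when any of SHAM 1, SHAM 2, SHAM 6, IR 3, IR 4 or IR 6 was left out. Bcat2, the mitochondrial branched-chain transaminase, averaged 77.7 ± 13.5 CPM in IR+Decursin, 64.1 ± 8.04 CPM in IR and 85.0 ± 10.9 CPM in SHAM hearts. It fell by 0.41 ± 0.12 in IR (edgeR adjusted p = 0.00699). Exons of Bckdha and Bcat2 overlap those of B3gnt8 and of the antisense RNA 0610005C13Rik on the opposite strand. No label or header states the strand setting of the counting, so reads of such neighbours cannot be told apart. In all, 9 of the 29 members have exons that overlap another annotated gene, among them Mccc1, Hibadh, Aldh6a1, Pcca, Mmut, Oxct1 and Bdh1.

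The regulators of the complex fell in all 3 cases, the brake and its opponent together. Bckdk, the kinase that inactivates the dehydrogenase complex, had a lowest, median and highest value of 52.8, 69.9 and 83.0 CPM in IR+Decursin, 51.3, 58.9 and 72.8 CPM in IR and 77.3, 81.5 and 85.6 CPM in SHAM hearts. Of the IR+Decursin libraries 4 of 6 lay below all SHAM libraries, and of the IR libraries all did. Its fall in IR was 0.41 ± 0.11 on the log2 scale (edgeR adjusted p = 0.00335). Ppm1k, the phosphatase that activates the complex, had 67.3, 80.8 and 120.4 CPM in IR+Decursin, 60.7, 84.3 and 94.7 CPM in IR and 89.9, 104 and 113 CPM in SHAM hearts. The groups overlapped, and 1 IR+Decursin library was above every SHAM library. Ppm1k fell by 0.33 ± 0.12 in IR (edgeR adjusted p = 0.0291), a call lost without SHAM 1, SHAM 6 or IR 6. Klf15, a Krüppel-like factor that in mouse heart and muscle drives genes of amino acid and lipid use, had 30.7, 48.6 and 57.02 CPM in IR+Decursin, 30.3, 36.6 and 42.2 CPM in IR and 42.2, 56.2 and 66.4 CPM in SHAM hearts. The highest IR library met the lowest SHAM library, and the IR+Decursin range covered most of both. The Klf15 fall in IR was 0.57 ± 0.14 (edgeR adjusted p = 0.00177). Scaled by library totals alone, none of these 3 regulators was called, and neither were Bcat2, Bckdha, Ivd, Mccc1, Acadsb, Acat1 or Slc16a1.

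All 4 members of the leucine branch fell in IR against SHAM, with a median log2 difference of -0.66. Auh, the methylglutaconyl-CoA hydratase, had a lowest, median and highest value of 38.5, 54.7 and 72.1 CPM in IR+Decursin, 39.8, 46.8 and 49.4 CPM in IR and 74.5, 76.3 and 86.2 CPM in SHAM hearts. Every library of both ischemia-reperfusion groups lay below SHAM. It fell by 0.79 ± 0.10 in IR (edgeR adjusted p = 9.85e-06). Mccc2, the carboxylating beta subunit of methylcrotonyl-CoA carboxylase, averaged 47.3 ± 8.26 CPM in IR+Decursin, 36.7 ± 6.32 CPM in IR and 62.6 ± 2.66 CPM in SHAM hearts (SD, n = 6 each). Its biotin-carrying partner Mccc1 averaged 90.8 ± 14.2 CPM in IR+Decursin, 82.6 ± 12.1 CPM in IR and 118 ± 10.9 CPM in SHAM hearts. The log2 difference in IR against SHAM was -0.77 ± 0.11 for Mccc2 (edgeR adjusted p = 2.75e-05) and -0.52 ± 0.11 for Mccc1 (edgeR adjusted p = 0.000557). Mccc1 shares exonic sequence with 3 annotated genes on the opposite strand. Ivd, isovaleryl-CoA dehydrogenase, averaged 263 ± 50.7 CPM in IR+Decursin, 229 ± 52.5 CPM in IR and 333 ± 26.8 CPM in SHAM hearts and fell by 0.54 ± 0.14 in IR (edgeR adjusted p = 0.00331).

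The valine branch had the lowest median of any role, -0.78, and in all 4 of its members the IR and SHAM libraries did not overlap. Hibch, the hydrolase that frees hydroxyisobutyrate from CoA, had a lowest, median and highest value of 69.6, 85.0 and 109.7 CPM in IR+Decursin, 56.7, 68.1 and 77.3 CPM in IR and 115, 123 and 134 CPM in SHAM hearts. Both ischemia-reperfusion groups lay wholly below SHAM. Hibch fell by 0.87 ± 0.11 in IR (edgeR adjusted p = 6.49e-06). Hibadh, the next enzyme, had 135, 182 and 244 CPM in IR+Decursin, 111, 137 and 155 CPM in IR and 228, 249.6 and 259 CPM in SHAM hearts. A single IR+Decursin library reached the SHAM range. The Hibadh fall in IR was 0.85 ± 0.11 (edgeR adjusted p = 8.05e-06). Aldh6a1, methylmalonate semialdehyde dehydrogenase, fell by 0.71 ± 0.11 and Acad8, isobutyryl-CoA dehydrogenase, by 0.66 ± 0.11, with adjusted p of 3.29e-05 and 7.05e-05 in edgeR.

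Both members of the isoleucine branch fell. Hsd17b10 averaged 97.3 ± 17.1 CPM in IR+Decursin, 91.3 ± 10.5 CPM in IR and 132 ± 9.31 CPM in SHAM hearts (SD, n = 6 each) and fell by 0.53 ± 0.10 in IR (edgeR adjusted p = 0.000280). Acadsb, the short and branched-chain acyl-CoA dehydrogenase, averaged 145 ± 15.6 CPM in IR+Decursin, 144 ± 23.2 CPM in IR and 179 ± 14.5 CPM in SHAM hearts. Its fall of 0.31 ± 0.10 in IR was the smallest among the called members (edgeR adjusted p = 0.0158), and its groups overlapped.

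The route from propionyl-CoA to succinyl-CoA fell in all 6 members, each without overlap between IR and SHAM libraries. Mcee, the methylmalonyl-CoA epimerase, fell by 0.82 ± 0.13 (edgeR adjusted p = 3.81e-05). Pcca and Pccb, the alpha and beta subunits of propionyl-CoA carboxylase, fell by 0.70 ± 0.11 and 0.60 ± 0.12, with adjusted p of 4.47e-05 and 0.000528 in edgeR. Mmut, the cobalamin-dependent mutase, fell by 0.57 ± 0.10 (edgeR adjusted p = 0.000107). Mmaa and Mmab, which load and make the adenosylcobalamin that the mutase needs, fell by 0.61 ± 0.09 and 0.65 ± 0.14, with adjusted p of 3.80e-05 and 0.000626 in edgeR. Mmab averaged 25.9 ± 6.72 CPM in IR+Decursin, 18.4 ± 2.38 CPM in IR and 28.9 ± 2.16 CPM in SHAM hearts (SD, n = 6 each).

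Among the ketone genes Oxct1 fell the most of any member, Acat1 and Slc16a1 fell less, and Bdh1 did not pass the test. Oxct1 had a lowest, median and highest value of 1038, 1158 and 1551 CPM in IR+Decursin, 673, 890.3 and 1019 CPM in IR and 1534, 1735 and 1878 CPM in SHAM hearts. The IR libraries were below all libraries of both other groups, and only the highest IR+Decursin library reached the SHAM range. Oxct1 fell by 49.9% in IR, a log2 difference of -0.996 ± 0.12 (edgeR adjusted p = 5.94e-06). Bdh1, the mitochondrial hydroxybutyrate dehydrogenase that turns hydroxybutyrate into acetoacetate, had 140.4, 159 and 262 CPM in IR+Decursin, 98.5, 107 and 170.4 CPM in IR and 87.3, 126 and 221 CPM in SHAM hearts. Its groups overlapped widely, and its SHAM values varied the most of the 28 members other than Aass, with a coefficient of variation of 36.3%. The Bdh1 difference in IR against SHAM was -0.18 ± 0.22 (edgeR adjusted p = 0.530).

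Acat1 had a lowest, median and highest value of 415, 512 and 719.7 CPM in IR+Decursin, 412, 486 and 666 CPM in IR and 616, 697 and 777 CPM in SHAM hearts. In each ischemia-reperfusion group 5 of 6 libraries lay below all SHAM libraries. Acat1 fell by 0.48 ± 0.13 in IR (edgeR adjusted p = 0.00361). Slc16a1, the monocarboxylate transporter MCT1 that carries ketone bodies, lactate and pyruvate across the plasma membrane, had 224, 269 and 319.5 CPM in IR+Decursin, 192, 206 and 262 CPM in IR and 249.9, 306 and 371 CPM in SHAM hearts. The IR range overlapped SHAM through 1 library. Slc16a1 fell by 0.50 ± 0.11 in IR (edgeR adjusted p = 0.000746).

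Of the lysine genes, Gcdh, glutaryl-CoA dehydrogenase, fell by 0.65 ± 0.13 in IR against SHAM (edgeR adjusted p = 0.000548). It averaged 55.8 ± 10.6 CPM in IR+Decursin, 46.5 ± 9.52 CPM in IR and 72.8 ± 5.94 CPM in SHAM hearts (SD, n = 6 each). Aass averaged 0.569 ± 0.330, 0.529 ± 0.303 and 0.390 ± 0.205 CPM in IR+Decursin, IR and SHAM hearts, and did not pass the test (0.43 ± 0.51, edgeR adjusted p = 0.510 in IR against SHAM).

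**Figure D2:**
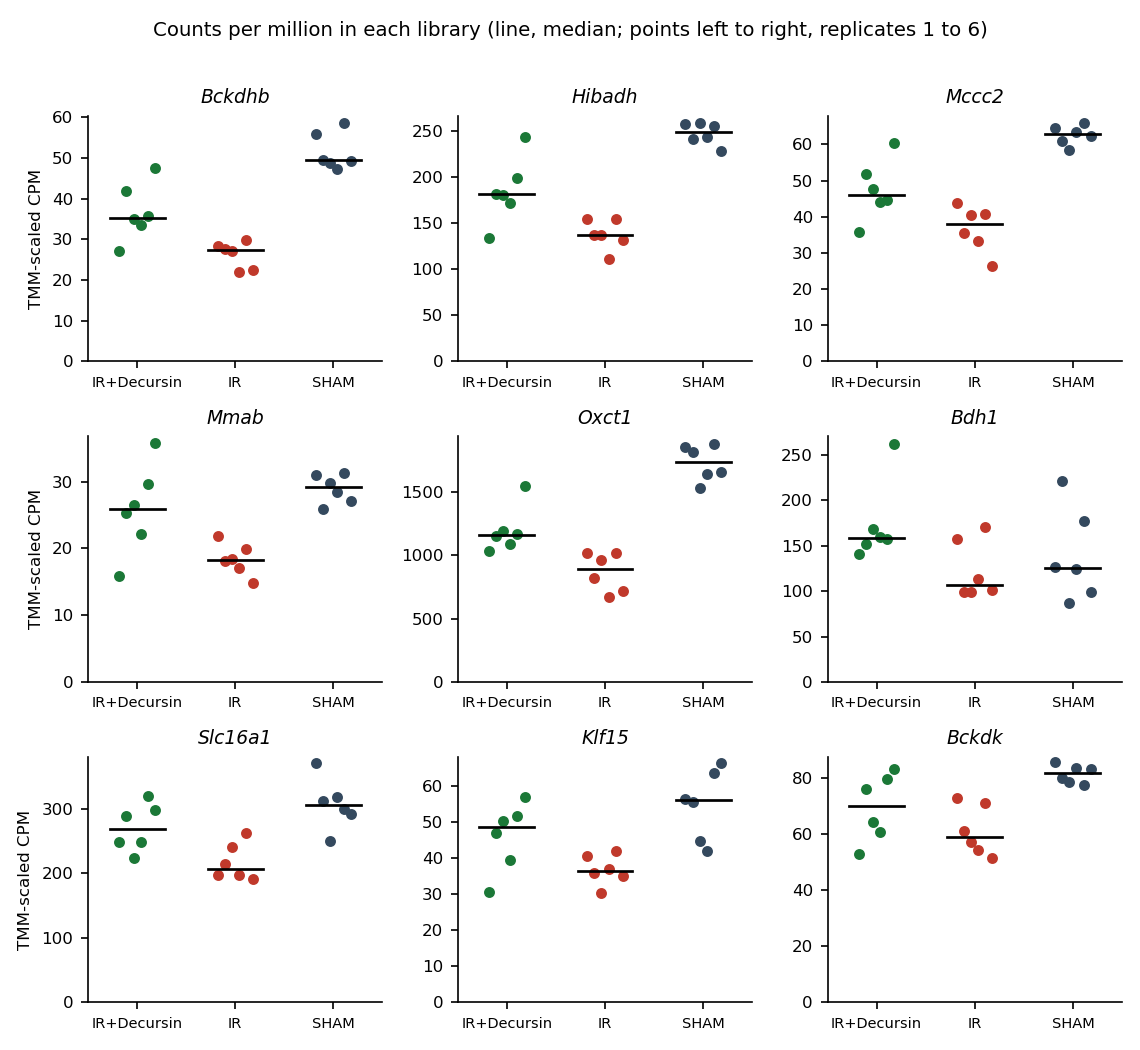
Level in CPM (vertical axis, linear, TMM-scaled) of 9 members in each of the 6 libraries of IR+Decursin, IR and SHAM hearts, with a line at the group median. For Bckdhb, Hibadh, Mccc2, Mmab, Oxct1 and Bckdk every IR point is below every SHAM point, while for Bdh1 the 3 groups overlap.

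Genes around the members moved in different directions. Of all tested genes, 25.3% rose and 21.7% fell in IR against SHAM hearts. Upstream, 6 of the 7 genes of amino acid transport and the first step rose in IR against SHAM hearts, with a median of 0.92. Slc7a5, the light chain of the main leucine exchanger, averaged 6.88 ± 1.68 CPM in IR+Decursin, 9.11 ± 1.64 CPM in IR and 4.33 ± 0.497 CPM in SHAM hearts (SD, n = 6 each) and rose by 1.07 ± 0.16 in IR (edgeR adjusted p = 2.13e-05). Its heavy chain partner Slc3a2 rose by 0.66 ± 0.10, and Slc7a8, another exchanger of large neutral amino acids, by 1.91 ± 0.30, with adjusted p of 3.05e-05 and 6.46e-05 in edgeR. Slc25a44, the mitochondrial carrier of branched-chain amino acids, had a difference of 0.06 ± 0.10 (edgeR adjusted p = 0.674). Bcat1, the cytosolic transaminase, was singled out after its values were seen as the counterpart of Bcat2. It averaged 6.03 ± 4.48 CPM in IR+Decursin, 8.52 ± 4.14 CPM in IR and 1.33 ± 0.460 CPM in SHAM hearts and rose by 2.67 ± 0.53 in IR (edgeR adjusted p = 0.000611).

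Downstream, 12 of 14 genes of the later steps shared with other pathways fell in IR against SHAM, with a median of -0.60. The examples with the smallest adjusted p were Sucla2, a subunit of succinyl-CoA synthetase, at -0.96 ± 0.12, Ehhadh, the peroxisomal bifunctional enzyme, at -0.97 ± 0.13, and Dld, the lipoamide dehydrogenase that completes the branched-chain complex, at -0.78 ± 0.11. Their edgeR adjusted p were 7.64e-06, 1.06e-05 and 1.27e-05. The 3 electron acceptors of the acyl-CoA dehydrogenases, Etfa, Etfb and Etfdh, fell by 0.70, 0.63 and 0.61. In the vitamin and cofactor list 7 of 15 fell and 1 rose, Mmadhc, a cobalamin trafficking protein, having the smallest adjusted p (-0.66 ± 0.08, edgeR adjusted p = 5.77e-06) and Tcn2, the cobalamin carrier transcobalamin, being the one that rose (0.28, edgeR adjusted p = 0.00965).

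The remaining ketone genes were mixed, with 4 of the 10 tested rising and 3 falling in IR against SHAM. Slc16a3, the transporter MCT4 of glycolytic cells, rose by 3.61 ± 0.46 (edgeR adjusted p = 1.68e-05). Among 7 tested lysine and tryptophan genes 2 rose and 2 fell, the largest fall being in Dlst, the transacylase of the oxoglutarate dehydrogenase complex (-0.82 ± 0.12, edgeR adjusted p = 1.70e-05). Scaled by library totals alone, every called direction in these lists stayed the same except those of Hmgcs1 (-0.22 with TMM, 0.09 with totals) and Cd320 (-0.30 with TMM, 0.01 with totals), and 9 calls were lost.

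Markers of cell types moved in the same comparison. For cardiomyocytes, 13 of 14 markers fell in IR against SHAM, with a median of -0.62, close to the median of the members. Their summed level was 49147 to 83420 CPM in IR+Decursin, 42884 to 61000 CPM in IR and 80814 to 92879 CPM in SHAM libraries. All 10 macrophage markers rose, with a median of 1.95, and their summed level was 388 to 1084 CPM in IR+Decursin, 825 to 1467 CPM in IR and 273 to 389.9 CPM in SHAM libraries. None of the 10 was at 0 in any library. Activated fibroblast markers rose in 6 of 8 cases and fell in 1 (Comp, a matrix protein of cartilage, at -1.03, not called with library totals alone), and summed to 377 to 3432 CPM in IR+Decursin, 1173 to 4263 CPM in IR and 323 to 447 CPM in SHAM libraries. T and NK cell markers rose in 7 of 7 tested, the 7 of 8 listed that passed the filter on low counts. The 8 summed to 1.02 to 1.92 CPM in SHAM libraries and to at most 17.1 CPM in any library. Up to 2 of 8 were at 0 in a SHAM library. A gene near 0 in SHAM hearts passes that filter only through higher groups, so this count is partly set by the filter. Neutrophil markers rose in 3 of 6. Resident fibroblast markers rose in 6 of 8 and fell in 1, endothelial markers fell in 2 of 8, and smooth muscle and pericyte markers fell in 4 of 8. Of all tested genes, 25.3% rose and 21.7% fell, and the endothelial count is near that share. Scaled by library totals alone, 9 of 14 cardiomyocyte markers fell, with a median of -0.31, while no endothelial marker fell and 1 rose, and no smooth muscle and pericyte marker fell and 3 rose. With totals alone 7% of all genes fell and 46.5% rose. The sign of Emcn, an endothelial sialomucin, turned with that scaling, at -0.18 with TMM and 0.12 with totals. The part of these cell types in the fall of the members was not tested.

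The position of each library was similar for the members and for the cardiomyocyte markers. Measured as the median deviation from the SHAM mean on the log2 scale, the members stood at -0.75, -0.29, -0.39, -0.50, -0.42 and -0.03 in IR+Decursin libraries 1 to 6, at -0.80 to -0.39 in IR libraries and at -0.12 to 0.12 in SHAM libraries. IR+Decursin 6 had the highest value of its group for 26 of the 29 members, and IR+Decursin 1 the lowest for 25. In IR+Decursin 6 only 5 members were below all SHAM libraries, against 23 to 27 in the other 5 IR+Decursin libraries and 22 to 28 in the IR libraries. The cardiomyocyte markers were at -0.05 in IR+Decursin 6 and at -0.72 in IR+Decursin 1, and the macrophage markers at 0.23 and 1.85 in the same libraries. A single RNA, Gm26917, took 7.54% of the counts of IR+Decursin 6.

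**Figure D3:**
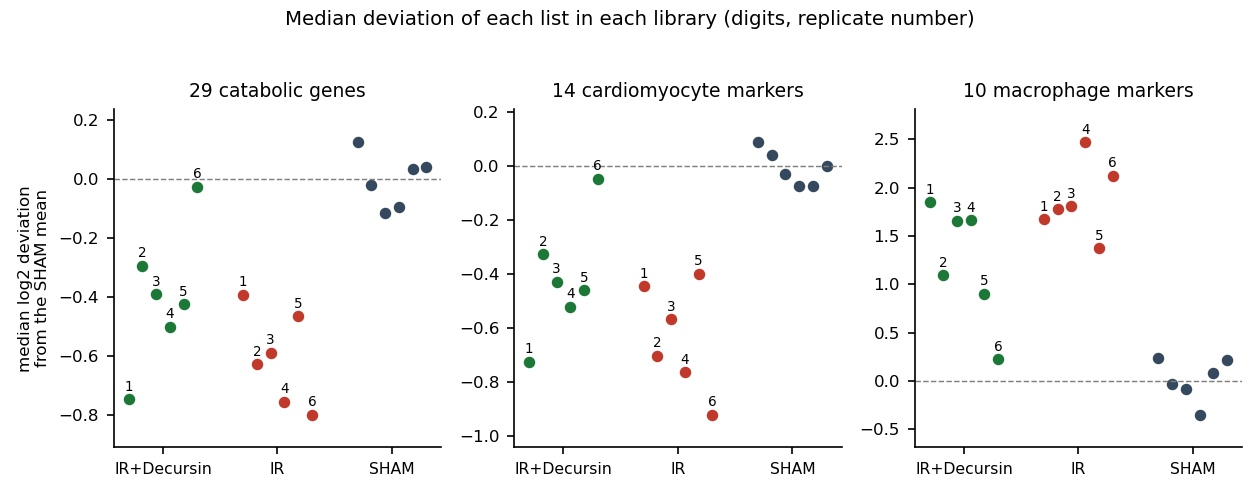
Median log2 deviation from the SHAM mean of the 29 members, 14 cardiomyocyte markers and 10 macrophage markers in each of the 18 libraries (1 point per library and list, groups in the order IR+Decursin, IR, SHAM). IR 6 and IR 4 have the lowest member medians of the IR hearts (-0.80 and -0.75) and the highest macrophage medians (2.12 and 2.47), and IR+Decursin 6 lies near the SHAM libraries in all 3 lists.

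**Figure D4:**
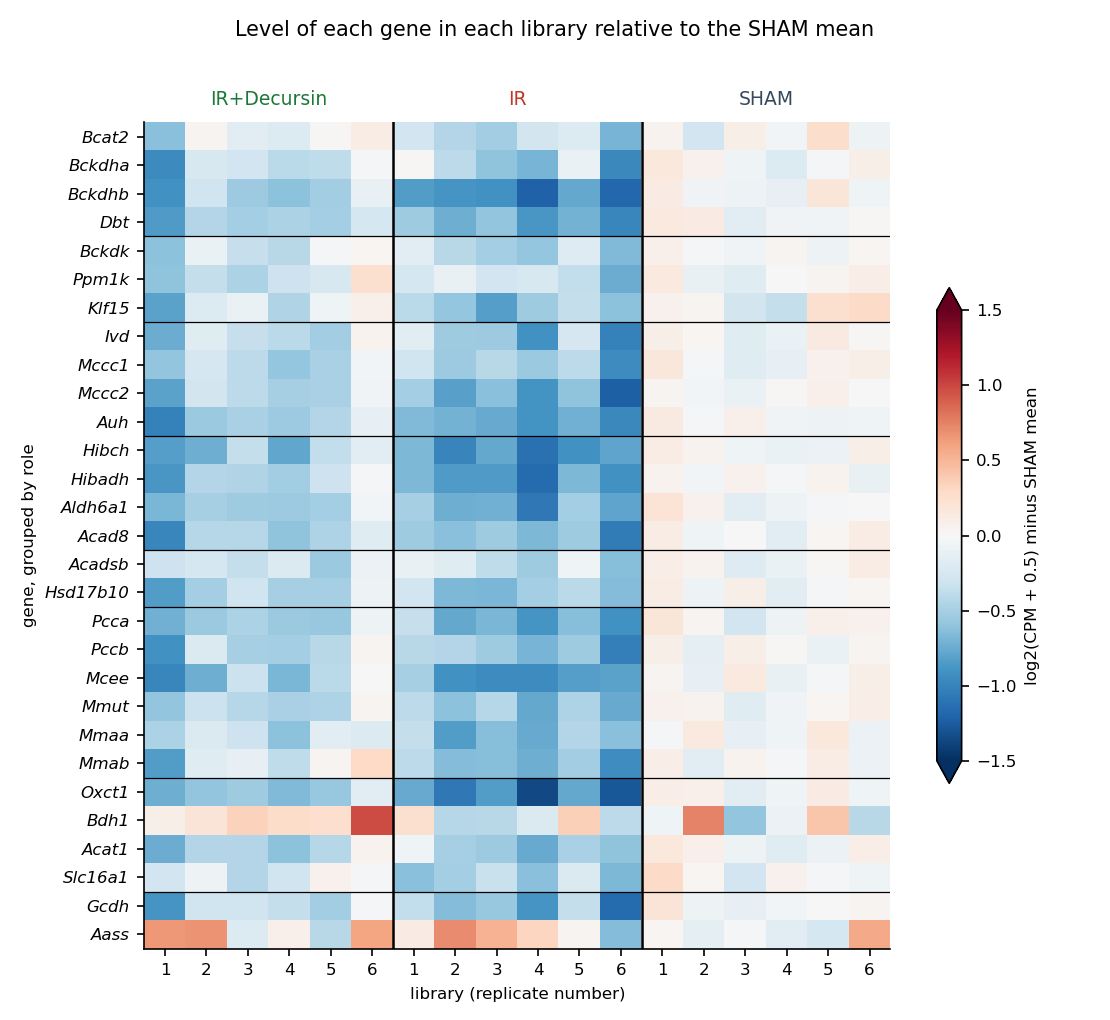
Level of each member (rows, by role) in each library (columns, by group) as log2(CPM + 0.5) minus the SHAM mean, with the colour scale running from -1.5 to 1.5. Most rows are below the SHAM mean across the IR columns and the first 5 IR+Decursin columns, whereas Bdh1 and Aass are called in none of the 3 comparisons.

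With decursin most members were still below the sham level. In IR+Decursin against SHAM hearts 19 of 29 members fell and none rose, where 11.8% of all tested genes fell and 17.5% rose. The median member difference was -0.38, against -0.00 over all tested genes, and 5 members (Dbt, Auh, Hibch, Acad8 and Mmaa) did not overlap, a separation that 2.9% of tested genes showed, while 4.44% showed it in the other direction. All 4 valine genes, both isoleucine genes, 5 of 6 propionate genes and 3 of 4 leucine genes fell. In the dehydrogenase complex Dbt fell by 0.50 and Bckdhb by 0.49, with edgeR adjusted p of 0.000807 and 0.00328. Oxct1 fell by 0.53 (edgeR adjusted p = 0.00292) and Acat1 by 0.42 (edgeR adjusted p = 0.0163). The 3 regulators were among the 10 members not called, with differences of -0.23 for Bckdk, -0.27 for Ppm1k and -0.25 for Klf15 and adjusted p from 0.0928 to 0.167.

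Also not called were Bcat2, Bckdha, Ivd, Mmab, Bdh1, Aass and Slc16a1. Mmab was at -0.16 (edgeR adjusted p = 0.394), and Slc16a1 at -0.18 (edgeR adjusted p = 0.222). Bdh1 was at 0.31 ± 0.22 (edgeR adjusted p = 0.305), and it was called higher, at 0.51, when libraries were scaled by totals alone, where the all-gene median was 0.22 and 12 members were called lower, against 2.5% of all genes. The count of members called lower was 23 without IR+Decursin 6, where 14.1% of all genes were called lower. It was 17 without IR+Decursin 1, where 8.5% of all genes were called lower. Cardiomyocyte markers fell in 7 of 14 cases in this comparison, with a median of -0.36, and macrophage markers rose in 10 of 10, with a median of 1.34. A member called in 1 comparison with SHAM and not in the other is not thereby shown to differ between them. Both comparisons share the SHAM libraries.

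Set directly against untreated ischemia-reperfusion hearts, decursin-treated hearts had higher fitted values for every member in the main fit, but none passed the test. Scaled by library totals alone, Acadsb (-0.08), Ppm1k (-0.06), Acat1 (-0.04), Bckdha (-0.03) and Hsd17b10 (-0.01) were lower in decursin-treated hearts. With that scaling the member median was 0.16, against -0.10 over all genes, and none was called. An unadjusted edgeR p under 0.05 was then found for 11 members and 15.3% of all genes. In IR+Decursin against IR, 0 of 29 members and 0% of tested genes were called in either direction by edgeR, and limma voom also called 0. At an unadjusted p under 0.05 there were 16 members, all higher, where 10.1% of tested genes were higher and 7.87% lower, 2712 genes in all. The median member difference was 0.25, against -0.02 over all tested genes. DESeq2 called 5 members higher, namely Bckdhb, Hibadh, Hibch, Mmab and Oxct1, with adjusted p from 0.00789 to 0.0479, where it called 2.48% of genes higher and 0.636% lower.

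The 3 members with the smallest p were Bckdhb, Hibadh and Oxct1. Their differences were 0.49 ± 0.11, 0.43 ± 0.11 and 0.47 ± 0.12 (log2, SE), with edgeR adjusted p of 0.0883, 0.0958 and 0.0958. For Oxct1 all 6 IR+Decursin libraries lay above all IR libraries, a separation that 0.272% of tested genes showed in this direction. For Bckdhb, Dbt, Mccc2, Auh, Hibadh and Mmab it was 5 of 6. Bdh1 and Mmab had the largest fitted differences, 0.49 ± 0.22 and 0.49 ± 0.14, with edgeR adjusted p of 0.253 and 0.114. At the other end Acadsb, Acat1, Ppm1k and Bckdha differed by 0.01 ± 0.10, 0.06 ± 0.12, 0.06 ± 0.12 and 0.06 ± 0.15. Klf15 had a difference of 0.32 ± 0.14 (edgeR adjusted p = 0.231) and Bckdk of 0.18 ± 0.11 (edgeR adjusted p = 0.373).

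These values depended on which hearts were included. Without IR+Decursin 1, the library with the lowest values, edgeR called 11 members higher (Auh, Bcat2, Bckdhb, Dbt, Hibadh, Hibch, Klf15, Mccc2, Mcee, Mmab and Oxct1) with adjusted p from 0.00981 to 0.0446, where 4.58% of genes were called higher and 1.84% lower. Without IR+Decursin 6, the library with the highest values, none was called, 9 members had an unadjusted p under 0.05, as did 11.8% of all genes in either direction, and the median was 0.18. Ppm1k, Acat1, Acadsb, Bckdha and Aass then had differences below 0, from -0.07 to -0.01. Without the 3 libraries with over 1000 Xist counts none was called, and 7 members had an unadjusted p under 0.05, as did 8.48% of all genes in either direction, with a median of 0.21. The cardiomyocyte markers were positive in 14 of 14 cases in IR+Decursin against IR, with a median of 0.29, and the macrophage markers negative in 10 of 10, with a median of -0.58, while none of either list was called. Their part in the member values was not tested.

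Ratios of counts between partner genes are unaffected by how a library is scaled, though they carry the genes' lengths, and 6 were compared in IR against SHAM and in IR+Decursin against IR, 12 exact two-sided permutation tests over 924 splits each, with a smallest possible p of 0.00216. The log2 ratio of Mccc1 to Mccc2, the 2 subunits of methylcrotonyl-CoA carboxylase, was 0.94 ± 0.09 in IR+Decursin, 1.18 ± 0.05 in IR and 0.92 ± 0.10 in SHAM hearts (SD, n = 6 each). All 6 IR hearts were above all 6 SHAM hearts, a difference of 0.26 (exact permutation p = 0.00216, adjusted over 12 tests 0.0130). All 6 IR+Decursin hearts were below all 6 IR hearts, a difference of -0.23 with the same p and adjusted p. The differences stayed between 0.23 and 0.28 and between -0.27 and -0.21 when each library was left out in turn. Both differences share the IR hearts, so they are not separate evidence. Mccc1 is also the member whose exons overlap 3 opposite-strand genes, and their share of its counts was not tested.

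Relative to Oxct1, both Bdh1 and Slc16a1 stood higher in IR hearts than in SHAM hearts. The log2 ratio of Bdh1 to Oxct1 was -2.81 ± 0.13 in IR+Decursin, -2.83 ± 0.28 in IR and -3.70 ± 0.42 in SHAM hearts (SD, n = 6 each). The difference of 0.87 in IR against SHAM had an exact permutation p of 0.00649, adjusted 0.0195, with 4 of 6 IR hearts above all SHAM hearts. Between IR+Decursin and IR hearts it was 0.02 (exact permutation, adjusted p = 0.859). The log2 ratio of Slc16a1 to Oxct1 was -2.14 ± 0.22 in IR+Decursin, -1.99 ± 0.20 in IR and -2.50 ± 0.13 in SHAM hearts. The difference of 0.51 in IR against SHAM had an exact permutation p of 0.00433, adjusted 0.0173, with 5 of 6 IR hearts above all SHAM hearts. Between IR+Decursin and IR hearts it was -0.15 (exact permutation, adjusted p = 0.519). Both ratios share Oxct1 and use the same counts as the edgeR differences of these genes, so they are not separate evidence. Exons of Oxct1 and of Bdh1 overlap opposite-strand genes, whose share of the counts was not tested.

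The ratios that describe the switch of the dehydrogenase complex did not pass the test. Kinase to phosphatase, Bckdk to Ppm1k, differed by -0.08 in IR against SHAM and by 0.13 in IR+Decursin against IR, with exact permutation adjusted p of 0.574 and 0.568. Bckdk to Bckdha differed by 0.04 and 0.10, with adjusted p of 0.816 and 0.568. The ratio of the propionyl-CoA carboxylase subunits Pcca to Pccb differed by -0.10 and 0.03, with adjusted p of 0.568 and 0.859.

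**Figure D5:**
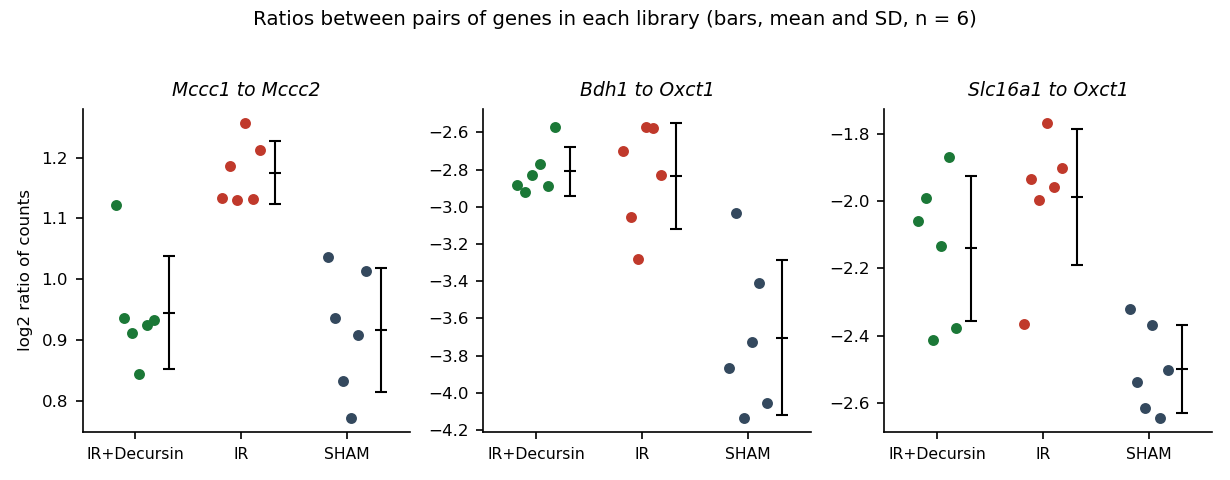
Log2 ratio of counts of Mccc1 to Mccc2, Bdh1 to Oxct1 and Slc16a1 to Oxct1 in each heart of the IR+Decursin, IR and SHAM groups, with the group mean and SD. For Mccc1 to Mccc2 the IR hearts lie above both other groups without overlap, and for Bdh1 to Oxct1 the IR+Decursin and IR hearts lie mostly above the SHAM hearts.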

How the data were processed

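Total RNA of 18 mouse hearts was sequenced, 6 in each of 3 groups taken from the sample titles. Reads were processed with fastp, HISAT2 and HTSeq on GRCm39, per the submitters' processing notes, while no label or header states the strand setting or the annotation release. The authors deposited 1 table of whole-number counts per gene and 1 of FPKM. The deposited FPKM equal counts divided by gene length and library total for all 347198 values above 0 (largest relative deviation 1.58e-09). Library totals ran from 27525876 to 34974692 counts.

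The main test was that of edgeR 4.0.16, run in R 4.3.3 (filterByExpr by group, TMM factors, robust quasi-likelihood fit over all 18 libraries with 15 residual degrees of freedom), with Benjamini-Hochberg adjustment over 15088 genes and a threshold of 0.05. CPM use the TMM-scaled totals, and SEs are the log2 difference divided by the root of F. Ratios are log2((count + 0.5)/(count + 0.5)), compared by exact permutation with adjustment over 12 tests. The edgeR test and the permutation test were tried on simulated data. In the simulated counts few genes changed, evenly up and down, so they cannot speak to the choice of scaling. Alternatives were DESeq2 1.42.0, limma 3.58.1 (voom, and trend on log2(FPKM + 1) and log2(FPKM + 0.1)), RLE factors, library totals, other filters, each group pair alone, the replicate number as a block, the libraries with over 1000 Xist counts left out or given a term, and each library left out in turn. Of 25731 symbols 24465 matched the gene name table, all 29 members among them. Exon overlaps come from GENCODE M21 and were used for neighbours only. Promoter motifs were counted with Python 3.11.15.

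The members and the gene lists were chosen with earlier results of these data known. All members are named; lowest, median and highest values are given for the 6 with the smallest adjusted p in IR against SHAM, the regulators and the ketone genes, and up to 3 called genes per pathway list are named by smallest adjusted p, with any called in the opposite direction. Some genes that this rule would name are not reported here. Intervals of counting error are not printed.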

Additional observations from a re-analysis of the deposited data

Results flagged for a closer look

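In 12 of 105 groups of 6 values checked, 1 heart stood apart from the other 5, with a gap to the nearest heart, divided by the range of the group, above Dixon's 95% critical value. Chance gives about 1 such group in 20 where groups are independent. These groups come from the same 18 hearts and are not independent, so the 12 cannot be weighed against that share. Of the 12, 6 rest on IR+Decursin 6, the heart whose member levels were nearest to SHAM. For Oxct1 it had 1551 CPM, against 1038 to 1194 CPM in the other IR+Decursin hearts (gap 0.695 of the range), and for Bdh1 262 CPM, against 140.4 to 168 CPM (0.773). For Acat1 it had 719.7 CPM, against 415 to 519 CPM (0.658), and for Aldh6a1 269 CPM, against 171 to 195 CPM (0.751). The same heart had 99.6 CPM of Pcca, against 63.8 to 75.7 CPM (0.668), and 120.4 CPM of Ppm1k, against 67.3 to 86.3 CPM (0.642).

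Among IR hearts, IR 1 was the highest for Acat1 at 666 CPM, against 412 to 497 CPM in the others (0.665), and for Mcee at 57.1 CPM, against 41.8 to 46.3 CPM (0.707). IR 6 was the lowest for Acad8 at 24.0 CPM, against 31.3 to 34.8 CPM (0.679). In SHAM hearts, SHAM 6 had 0.791 CPM of Aass, against 0.228 to 0.389 CPM (0.715), which are counts too few to rank hearts by. SHAM 4 had a log2 ratio of Bckdk to Bckdha of -1.26, against -1.60 to -1.49 (0.684). IR+Decursin 1 had a log2 ratio of Mccc1 to Mccc2 of 1.12, against 0.84 to 0.94 in the other IR+Decursin hearts (0.67), and so lay nearest to the IR hearts, which began at 1.13.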

How the results depend on the processing

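With 14 other settings, the members called in IR against SHAM numbered 17 with library totals only, with log2(FPKM + 1) and with log2(FPKM + 0.1), and 18 to 27 in the rest, and 17 of the 27 calls held in every setting. Of all genes, 7.0% to 7.24% were called lower in the first 3 settings and 8.9% to 23.8% in the rest. In IR+Decursin against SHAM 12 of the 19 calls held in every setting, where 2.5% to 15.5% of all genes were called lower. In IR+Decursin against IR DESeq2 called 5, where it called 2.48% of all genes higher, and the other settings called 0. Leaving out 1 library at a time gave 25 to 27 calls in IR against SHAM, where 19.8% to 23.3% of all genes were called lower. It gave 17 to 23 in IR+Decursin against SHAM, where 8.5% to 14.1% were, and 0 to 11 in IR+Decursin against IR. The 11 came without IR+Decursin 1, where 4.58% of all genes were called higher. Over single members, 0 called values changed sign in these settings. In IR+Decursin against IR the main fit called no member, so few called values could change sign there. Values called neither in the main fit nor in the setting did change sign in 44 of 926 cases there. This was so in 5 of 926 cases in IR against SHAM and 12 of 926 in IR+Decursin against SHAM. With the replicate number as a block, members called were 25 in IR against SHAM and 17 in IR+Decursin against SHAM. With that block 20.7% and 9.86% of all genes were called lower in these comparisons. Ratios in a paired test by replicate number kept their differences but lost their calls, at 0.2588 for Mccc1 to Mccc2, 0.8706 for Bdh1 to Oxct1 and 0.5123 for Slc16a1 to Oxct1 in IR against SHAM, and -0.2304 for Mccc1 to Mccc2 in IR+Decursin against IR (exact paired test over 64 sign flips, adjusted p = 0.1875 each), where the smallest p that the flips allow is 0.03125 before adjustment over 12 tests, so the loss of these calls says nothing about stability. In the sample titles the numbers name hearts within a group and no pairing is stated. Deviations of same-numbered hearts correlated at 0.03 to 0.11, -0.40 to 0.31 and -0.14 to 0.02 in the 3 comparisons. By their own number 0, 2 and 0 of 6 hearts were best matched. These correlations cannot exclude a pairing. The cause of each other lost call was not tested. Aass had the lowest depth, at 2 to 34 counts per library.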

Other observations

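In IR+Decursin against IR, none of the pathway lists around the members had a gene called by edgeR. At an unadjusted p under 0.05 there were 2 of 7 transport genes (median -0.26), 6 of 14 later steps (0.24), 4 of 10 other ketone genes (-0.10), 1 of 7 lysine and tryptophan genes (0.05), 5 of 15 cofactor genes (0.16) and 0 of 3 electron acceptors (0.16). Of all tested genes, 18.0% had such a p in either direction, and whether any list differs from that share was not tested. Dlst, singled out after the values were seen, differed by 0.48 ± 0.11 (edgeR adjusted p = 0.0930).

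In IR+Decursin against SHAM 6 of 7 transport genes rose (median 0.67), and 11 of 14 later steps fell (median -0.46). Of all tested genes, 17.5% rose and 11.8% fell. Abat, the transaminase of beta-alanine and aminobutyrate, was the 1 later step that rose, at 0.71 ± 0.25 (edgeR adjusted p = 0.0384). All 3 electron acceptors fell.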
